A study of Mus musculus with 4 samples.

Results

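The genes described here are 35 genes of fatty acid uptake, fatty acid oxidation and the response to PPARs. They were chosen by name from 26793 gene names on the array, though with earlier results of these data known. They fall into 8 steps: uptake and binding, activation and acyl-CoA hydrolysis, the carnitine shuttle, mitochondrial beta-oxidation, electron transfer flavoprotein, peroxisomal beta-oxidation, other PPAR targets, and regulators. The array carried 52 probes for them, 23 genes having 1 probe and 12 having several. Of the 35 genes, 34 were well above background on all 4 arrays, and the remaining gene, Cd36, was below background on all 4.

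The cells were IMS/N cells, a single line of hepatic stellate cells taken from normal livers of 129/Sv mice and immortalized with SV40, so the viral immortalization is common to every condition. There were 4 conditions, namely PA (palmitic acid, a saturated fatty acid) together with ADSC medium, PA alone, ADSC medium alone, and the control without PA or ADSC medium. ADSC medium is medium taken from cultures of adipose tissue-derived stem cells, which were prepared from inguinal subcutaneous fat of male C57BL/6J mice aged 8 to 10 weeks. The series title poses the question of whether ADSCs restore stellate cells that PA has activated. The dose and duration of PA, its vehicle, and whether cultures without ADSC medium received unconditioned medium were not given in the sources used here.

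Fatty acids that enter a cell are joined to coenzyme A, pass into mitochondria through the carnitine shuttle, and are shortened there by repeated rounds of beta-oxidation whose electrons leave through the electron transfer flavoprotein. Very long chains are shortened first in peroxisomes. PPAR alpha, delta and gamma are nuclear receptors that bind fatty acids and switch on many of these genes, and stellate cells are known as the fat-storing cells of the liver, which lose their lipid droplets when they become myofibroblasts.

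Each condition was measured on 1 array, so no difference below carries a test or a p-value, and the number of arrays limits the precision. A level is the quantile-normalized log2 of the scanner's background-subtracted intensity, and a difference is the first-named condition minus the second on that log2 scale. Levels of different probes are not set against each other. The spread of the measurement within an array came from 245 probes printed on 10 spots each. The SD of the difference between 2 spots of 1 probe was 0.059 at levels of 11 and above, 0.067 at 9 to 11, 0.080 at 7 to 9, 0.12 at 5 to 7, 0.23 at 3 to 5 and 0.41 below 3. This spread leaves out any variation between cultures. The text counts differences of at least 1.5-fold.

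The probes behind the larger differences are shown by the first 30 of their 60 bases, 5′ to 3′, in lower case with no base marked, since each difference is a reading of that stretch of the transcript and paralogous genes could share it. Positions are on mouse build mm9 as the array files give them, and their place in exons or UTRs was not analysed here. In the files the coordinates of Angptl4, Ehhadh, Fabp4 and Ppargc1a descend and those of Acot1, Acot2 and Pparg ascend.
Angptl4, chr17:33911880-33911939: atggtgctgttgtaggtgctgtggatgcac
Acot2, chr12:85334071-85334130: ggggaaacctcatatatattatcacaatgt
Acot1, chr12:85358452-85358511: tatcaaaatagtgctgattcaagggctggg
Ehhadh, chr16:21761914-21761973: atggccagatttcaggaatgtgttttctat
Fabp4, chr3:10204533-10205262: agatggtgacaagctggtggtggaatgtgt
Ppargc1a, chr5:51848928-51848987: ccccttcaaatggcagcatttccatgaaga
Pparg, chr6:115440213-115440272: gcaggaaagtcccacccgctgacaacgtgt
The Fabp4 span in the file is longer than the probe itself. The probes of the neighbouring paralogues Acot1 and Acot2 share at most 22 of 60 bases in any ungapped alignment, and the nearest probes of this pair lie 24.3 kb apart on chromosome 12. Probes were aligned only with each other, and different probes of a single gene score as low, at 19 for Acot3 and 21 for Acot4. Whether either probe also reads the transcript of the other gene was not tested.

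Of the 34 genes that could be compared, 8 differed by at least 1.5-fold in at least 1 of 4 comparisons, and 26 did not in any. The matching share over all genes was not computed, so this count is not read as high or low. In single comparisons and directions, 1.29% to 5.25% of all genes passed 1.5-fold. The 8 genes were Angptl4, Acot2, Ehhadh, Fabp4, Slc27a1, Ppargc1a, Pparg and Echs1. Angptl4 and Acot2 were higher with PA whether or not ADSC medium was present, Fabp4 was higher with ADSC medium whether or not PA was present, and the genes of the mitochondrial oxidation spiral mostly lay close together on the 4 arrays. In total RNA of a whole culture, fewer cells of a type and less RNA per cell cannot be told apart.

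**Figure D1:**
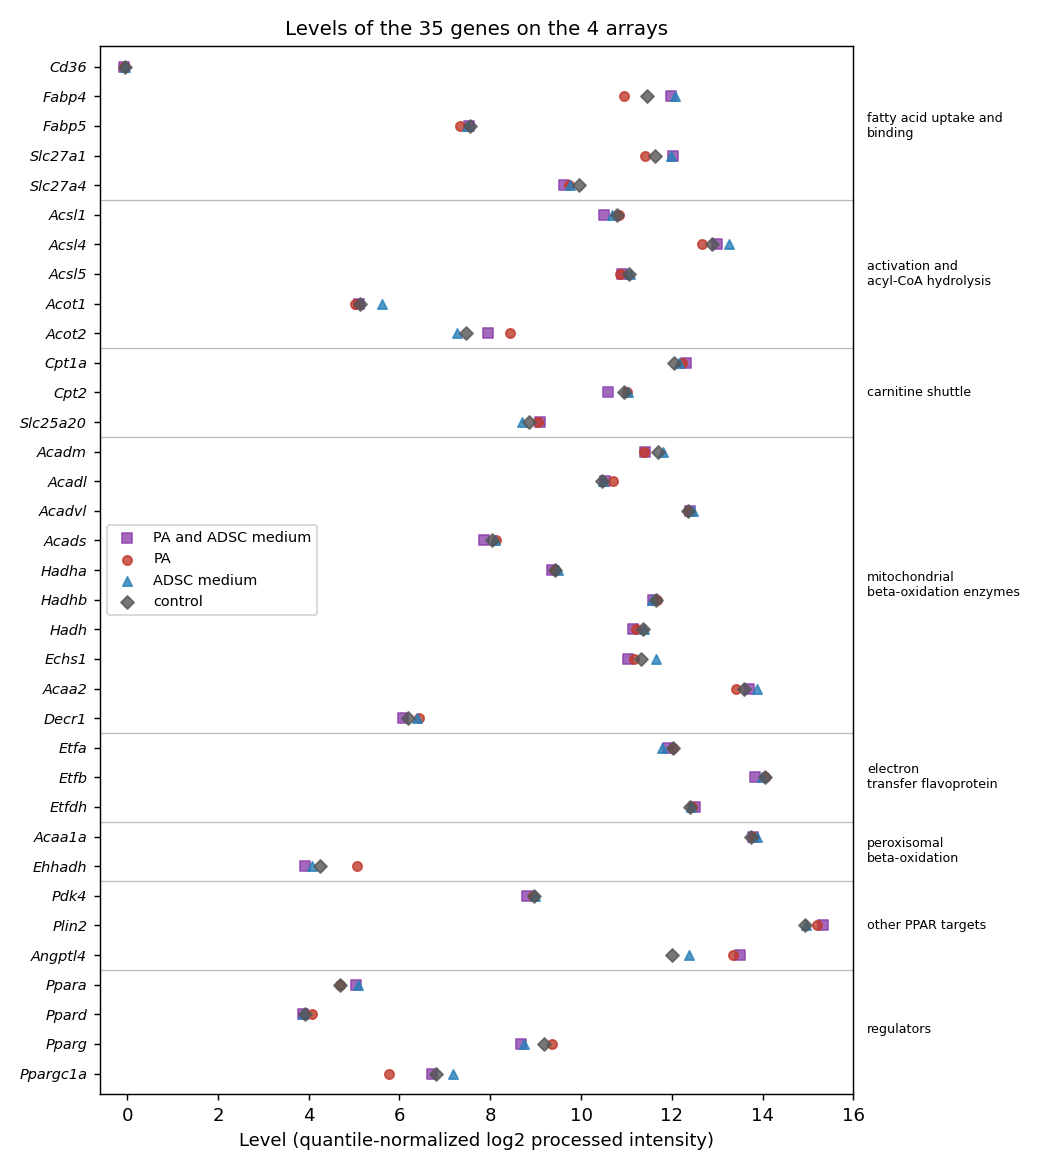
Level of each of the 35 genes (x axis, quantile-normalized log2 processed intensity) on the 4 arrays, 1 symbol per array, grouped by step. Angptl4, Acot2, Ehhadh, Fabp4 and Ppargc1a show the widest spacing between symbols, while Cd36 is below background on every array, and positions on the x axis are not comparable between genes.

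Among the uptake and binding genes, Fabp4, a fatty acid-binding protein best known from adipocytes and macrophages, differed most. Its level was 11.99 with PA and ADSC medium, 10.95 with PA, 12.07 with ADSC medium and 11.46 in the control. Both arrays with ADSC medium were therefore above both arrays without it, and PA alone was the lowest. The difference was 1.04 for PA and ADSC medium against PA (2.06-fold) and 0.61 for ADSC medium against control (1.52-fold). The 3 probes of Fabp4 gave 1.04, 1.03 and 1.09 for PA and ADSC medium against PA, and 0.61, 0.65 and 0.61 for ADSC medium against control. PA against control gave -0.51, while PA and ADSC medium against ADSC medium gave -0.07.

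Slc27a1 encodes a fatty acid transport protein of the plasma membrane. Its level was 12.02 with PA and ADSC medium, 11.41 with PA, 11.99 with ADSC medium and 11.63 in the control, the same order by medium as for Fabp4. PA and ADSC medium against PA gave 0.60 (1.52-fold), with 0.65 on its second probe, while ADSC medium against control gave 0.35. Slc27a4, the family's other listed transporter, stood at 9.63 with PA and ADSC medium, 9.72 with PA, 9.77 with ADSC medium and 9.95 in the control, so the control was the highest of the 4. Fabp5, a second fatty acid-binding protein, whose probe lies 188 kb from the nearest Fabp4 probe on chromosome 3, read 7.53 with PA and ADSC medium, 7.34 with PA, 7.48 with ADSC medium and 7.55 in the control. Its lowest reading, like that of Fabp4, was on the PA array, but no pair of arrays differed by 1.5-fold. Cd36, the fatty acid translocase, was below background on both of its probes on all 4 arrays and has no value here. With PA alone against control, all 4 measurable genes of uptake and binding were lower, with a median of -0.22.

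Fabp4 is itself on the adipocyte marker list, so the other markers are given beside it. Of 10 adipocyte markers 4 were well above background on all 4 arrays, and Adig, Adipoq, Cfd, Lep and Plin1 were below background on all 4. The list's summed level, Fabp4 included, was 12.90 with PA and ADSC medium, 12.67 with PA, 13.05 with ADSC medium and 12.95 in the control. Lpl read 11.76 with PA and ADSC medium, 12.12 with PA, 12.01 with ADSC medium and 12.29 in the control. Cidec read 4.07 with PA and ADSC medium, 4.57 with PA, 3.37 with ADSC medium and 3.82 in the control. Adding ADSC medium thus went with less Lpl and Cidec, whether or not PA was given. Lipe ran the other way, at 5.70 with PA and ADSC medium, 5.02 with PA, 5.21 with ADSC medium and 5.09 in the control. Its readings without PA lay close together. Of 10 macrophage markers 5 were well above background on all 4 arrays, with Adgre1, Clec4f, Ptprc and Tyrobp below background on all 4. Their summed level was 10.43 with PA and ADSC medium, 9.70 with PA, 10.25 with ADSC medium and 9.76 in the control. It was thus higher on both arrays with ADSC medium, chiefly through Cd14. Cd14 read 10.11 with PA and ADSC medium, 8.80 with PA, 9.81 with ADSC medium and 9.07 in the control. Csf1r was also higher with ADSC medium, both with and without PA. Lyz2 ran the other way, at 7.88 with PA and 7.48 in the control, and was lower on both arrays with ADSC medium. Itgam was well above background only on the arrays without ADSC medium. For Cd68 and Marco the direction for ADSC medium differed with and without PA. The part of other cells in the Fabp4 result was not tested.

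Acyl-CoA synthetases activate fatty acids, and thioesterases reverse that step. Acot2, the mitochondrial acyl-CoA thioesterase, had levels of 7.95 with PA and ADSC medium, 8.44 with PA, 7.26 with ADSC medium and 7.46 in the control. Both arrays with PA were above both without it. PA against control gave 0.98 (1.98-fold), while PA and ADSC medium against ADSC medium gave 0.69 (1.62-fold). With normexp background correction, another treatment of background, these were 0.81 and 0.56, the second below 1.5-fold. Acot1, the cytosolic paralogue, read 5.11 with PA and ADSC medium, 5.01 with PA, 5.62 with ADSC medium and 5.13 in the control. Its differences for PA were -0.12 without and -0.51 with ADSC medium, and neither reached 1.5-fold. The -0.12 lies within the spot SD of 0.12 at this level, and with normexp the values were -0.03 and -0.21, so no direction is read for Acot1 without ADSC medium.

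Acsl1, Acsl4 and Acsl5 are long-chain acyl-CoA synthetases, and Acsl4 prefers arachidonate. Acsl4 stood at 13.00 with PA and ADSC medium, 12.67 with PA, 13.25 with ADSC medium and 12.88 in the control. Its difference for ADSC medium was 0.33 with PA and 0.37 without PA on the probe that stands for it, and 0.60 and 0.46 on its other probe, which passed 1.5-fold in the presence of PA. Acsl1 read 10.51 with PA and ADSC medium, 10.83 with PA, 10.68 with ADSC medium and 10.80 in the control. Acsl5 read 10.90 with PA and ADSC medium, 10.87 with PA, 11.07 with ADSC medium and 11.06 in the control, a range of readings far below 1.5-fold.

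**Figure D2:**
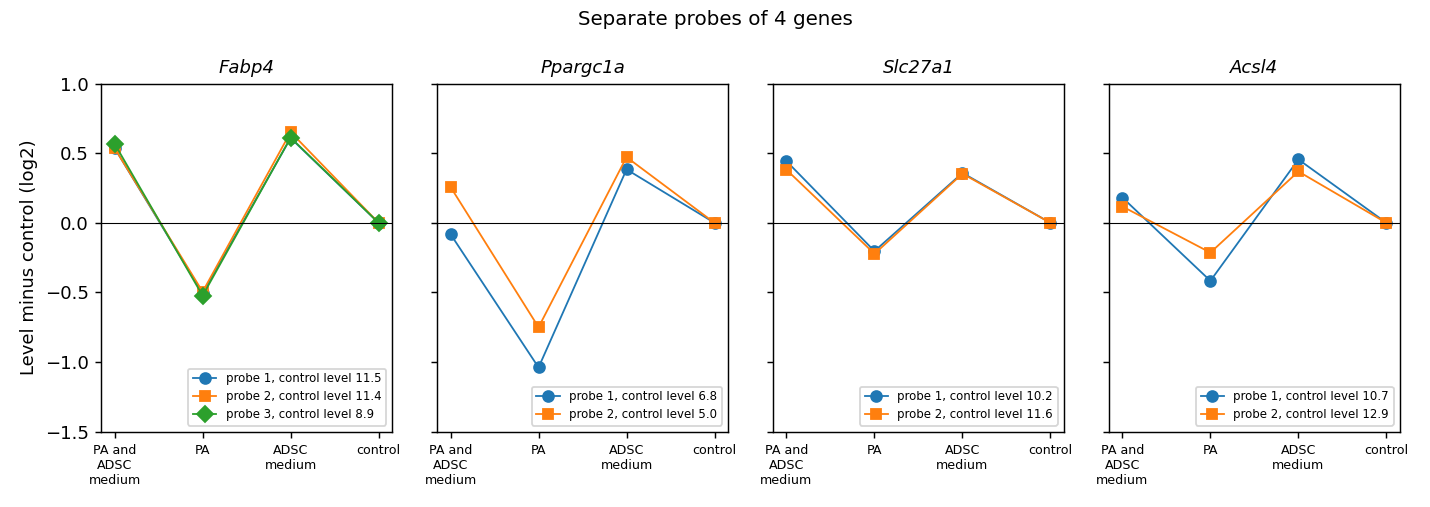
Level minus the control level (y axis, log2) on each array for the separate probes of Fabp4, Ppargc1a, Slc27a1 and Acsl4, 1 line per probe, with the lines joining conditions only to guide the eye. In these 4 genes every probe was lowest on the PA array and highest on the ADSC medium array, except that both probes of Slc27a1 were highest with PA and ADSC medium.

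The carnitine shuttle carries acyl groups across the inner mitochondrial membrane. Cpt1a, the outer-membrane enzyme that controls entry, was printed on 10 spots per array and read 12.32 ± 0.062 with PA and ADSC medium, 12.22 ± 0.058 with PA, 12.16 ± 0.070 with ADSC medium and 12.05 ± 0.057 in the control (SD over 10 spots of 1 array). The array with both treatments was the highest and the control the lowest, but the 4 arrays spanned far less than 1.5-fold. The highest spot with ADSC medium alone (12.24) lay above the mean with PA, but the same spot on the PA array read 12.30. Slc25a20, the carnitine-acylcarnitine carrier, read 9.10 with PA and ADSC medium, 9.05 with PA, 8.70 with ADSC medium and 8.84 in the control. Its differences for PA were 0.40 with ADSC medium and 0.21 without it. Cpt2, the inner-membrane enzyme, was lowest on the array with both treatments, at 10.60 with PA and ADSC medium, 11.02 with PA, 11.03 with ADSC medium and 10.96 in the control. With PA alone against control all 3 shuttle genes were higher, by 0.06 to 0.21. The 0.06 of Cpt2 lies within the spot SD of 0.067 at its level, as does the 0.05 of a second, dimmer Cpt1a probe.

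The 10 mitochondrial enzymes open, hydrate, oxidize and cleave the acyl chain. With PA against control 5 of them were higher and 5 lower, and their median difference was -0.0046, with no settled direction across the scalings tried. With ADSC medium against control 9 of 10 were higher, with a median of 0.08 and a range of -0.09 to 0.32. Among the 9, Acadl (0.02), Hadha (0.05), Hadh (0.03) and Acads (0.07) lay within the spot SD at their levels. Hadha gave -0.04 with the mean of its probes. Over all 18198 genes in that comparison 8756 were higher and 9391 lower. With PA and ADSC medium against ADSC medium 8 of 10 were lower, with a median of -0.20, beside a median of -0.02 over all 18467 genes in that comparison. These counts are described and not tested.

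Echs1, the short-chain enoyl-CoA hydratase, was the only gene among these 10 past 1.5-fold in any of the 4 comparisons. It read 11.04 with PA and ADSC medium, 11.16 with PA, 11.65 with ADSC medium and 11.33 in the control. PA and ADSC medium against ADSC medium gave -0.61 (1.53-fold lower), and PA against control gave -0.17. The ADSC medium array was the highest and the array with both treatments the lowest.

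Among the acyl-CoA dehydrogenases, which start each round, Acadm (medium chain) read 11.41 with PA and ADSC medium, 11.40 with PA, 11.80 with ADSC medium and 11.70 in the control. Both arrays with PA were lower, by -0.39 with and -0.31 without ADSC medium. Acadl (long chain) read 10.52 with PA and ADSC medium, 10.70 with PA, 10.49 with ADSC medium and 10.47 in the control. Acadvl (very long chain) read 12.40 with PA and ADSC medium, 12.36 with PA, 12.47 with ADSC medium and 12.35 in the control, and Acadvl thus varied little. Acads (short chain) read 7.86 with PA and ADSC medium, 8.13 with PA, 8.11 with ADSC medium and 8.04 in the control.

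Hadha and Hadhb form the trifunctional protein that completes the round for long chains, and their nearest probes lie 30.1 kb apart on chromosome 5. Hadha read 9.35 with PA and ADSC medium, 9.43 with PA, 9.49 with ADSC medium and 9.44 in the control. Hadhb read 11.59 with PA and ADSC medium, 11.66 with PA, 11.55 with ADSC medium and 11.65 in the control. On these probes neither gene differed by 1.5-fold in any of the 4 comparisons. The probes of Hadha did not share a direction: for PA and ADSC medium against ADSC medium, -0.13 came from the probe above, while a dimmer probe gave 0.34, and the mean of both gave 0.10. Hadh, the dehydrogenase for shorter chains, read 11.15 with PA and ADSC medium, 11.22 with PA, 11.40 with ADSC medium and 11.37 in the control, lower on both arrays with PA. Decr1, the reductase needed for unsaturated chains, read 6.07 with PA and ADSC medium, 6.44 with PA, 6.38 with ADSC medium and 6.18 in the control.

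Acaa2, the thiolase that releases acetyl-CoA, was printed on 10 spots and read 13.71 ± 0.066 with PA and ADSC medium, 13.42 ± 0.074 with PA, 13.87 ± 0.057 with ADSC medium and 13.58 ± 0.067 in the control (SD over 10 spots of 1 array). The difference for ADSC medium was 0.29 both with and without PA, and that for PA was -0.16 both with and without ADSC medium. The 10 spots with ADSC medium alone (13.76 to 13.94) lay above all 10 of the control (13.48 to 13.68), although the difference was below 1.5-fold. The electron transfer flavoprotein subunits and their dehydrogenase differed little. Etfa read 11.92 with PA and ADSC medium, 12.04 with PA, 11.78 with ADSC medium and 12.02 in the control. Etfb stood at 13.82 with PA and ADSC medium, 14.05 with PA, 14.00 with ADSC medium and 14.05 in the control. Etfdh stood at 12.51 with PA and ADSC medium, 12.44 with PA, 12.43 with ADSC medium and 12.41 in the control. A dim probe of Etfdh, which the files assign to another transcript, gave -0.59 for PA against control and 0.60 for PA and ADSC medium against PA, where the probe that stands for the gene gave 0.03 and 0.07.

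In the peroxisomal step, Ehhadh encodes the bifunctional enzyme, a classical PPAR alpha target in rodent liver. Its level was 3.92 with PA and ADSC medium, 5.06 with PA, 4.08 with ADSC medium and 4.26 in the control. PA alone stood above the 3 other arrays. PA against control gave 0.80 (1.75-fold), and PA and ADSC medium against PA gave -1.14 (2.21-fold lower). The gene is dim, with a spot SD of 0.23 at this level, and with normexp these differences were 0.27 and -0.33, below 1.5-fold. Acaa1a, the peroxisomal thiolase, read 13.79 with PA and ADSC medium, 13.82 with PA, 13.88 with ADSC medium and 13.76 in the control.

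Of the other PPAR targets, Angptl4, a secreted inhibitor of lipoprotein lipase, gave the largest difference for PA among the 34 genes compared. It read 13.50 with PA and ADSC medium, 13.35 with PA, 12.37 with ADSC medium and 12.01 in the control. Both arrays with PA were above both without it. PA against control gave 1.34 (2.53-fold), while PA and ADSC medium against ADSC medium gave 1.12 (2.18-fold), against a spot SD of 0.059. Plin2, the coat protein of lipid droplets, was also higher on both arrays with PA, at 15.33 with PA and ADSC medium, 15.20 with PA, 14.97 with ADSC medium and 14.93 in the control. Its differences of 0.36 with and 0.27 without ADSC medium were below 1.5-fold. With each array scaled to its 75th percentile instead, they were 0.30 and 0.14. Pdk4, a kinase that restrains the oxidation of pyruvate, read 8.81 with PA and ADSC medium, 8.94 with PA, 8.98 with ADSC medium and 8.96 in the control, so this PPAR target did not share the pattern of Angptl4.

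Among the regulators, Ppargc1a, a coactivator of PPARs that drives mitochondrial genes, was lowest with PA. Its level was 6.72 with PA and ADSC medium, 5.77 with PA, 7.19 with ADSC medium and 6.80 in the control. PA against control gave -1.04 (2.05-fold lower), and PA and ADSC medium against PA gave 0.96 (1.94-fold). A second probe gave -0.75 and 1.01 for these comparisons, and normexp background correction gave -0.64 and 0.60. On the other pair of arrays, PA and ADSC medium against ADSC medium gave -0.47, but only -0.21 on the second probe.

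Pparg encodes PPAR gamma, the receptor that governs fat storage and whose level is known to fall when stellate cells activate. On 10 spots per array it read 8.68 ± 0.046 with PA and ADSC medium, 9.36 ± 0.041 with PA, 8.73 ± 0.034 with ADSC medium and 9.19 ± 0.047 in the control (SD over 10 spots of 1 array). Both arrays with ADSC medium were below both without it, and their spots did not overlap: the highest with ADSC medium was 8.78 and the lowest without it was 9.10. PA and ADSC medium against PA gave -0.68 (1.60-fold lower), and ADSC medium against control gave -0.45.

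Ppara, the receptor best known for driving oxidation in hepatocytes, read 5.05 ± 0.086 with PA and ADSC medium, 4.69 ± 0.15 with PA, 5.09 ± 0.094 with ADSC medium and 4.69 ± 0.12 in the control (SD over 10 spots of 1 array). It ran opposite to Pparg, by 0.36 with and 0.40 without PA for ADSC medium, and both differences were below 1.5-fold. With normexp background correction they were smaller, at 0.11 and 0.16. Ppard, encoding PPAR delta, read 3.87 with PA and ADSC medium, 4.08 with PA, 3.87 with ADSC medium and 3.93 in the control, a range within the spot SD of 0.23.

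**Figure D3:**
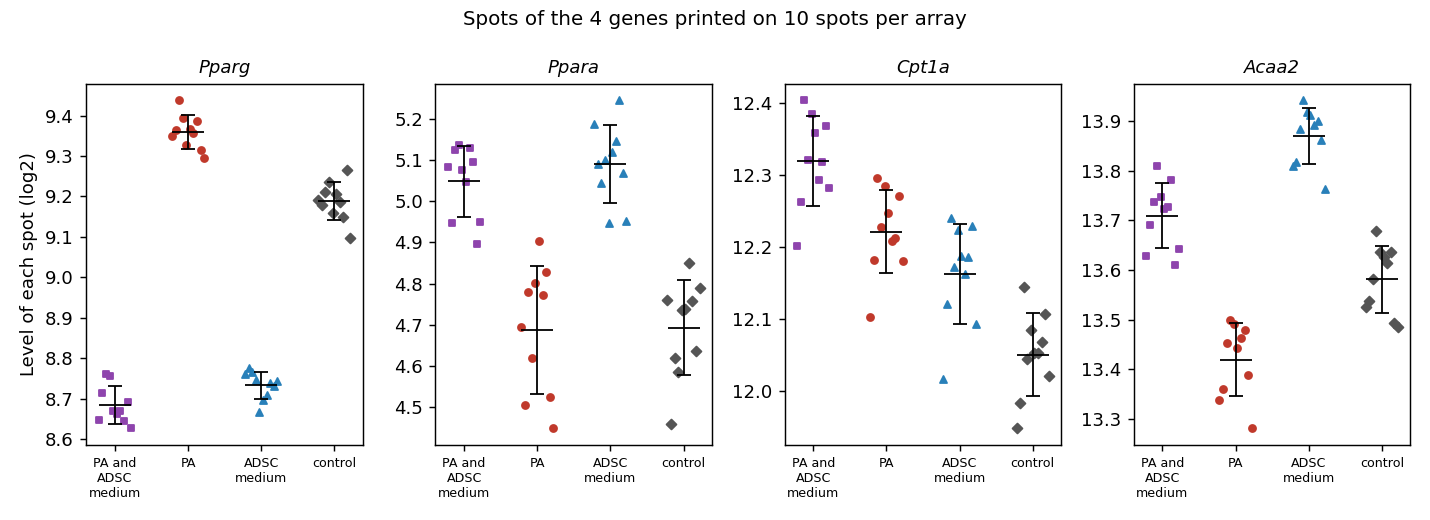
Level of every spot (y axis, log2) for Pparg, Ppara, Cpt1a and Acaa2, which were printed on 10 spots per array, with the mean and SD over spots of 1 array in black. Pparg with ADSC medium (8.68 and 8.73) sits below Pparg without it (9.36 and 9.19), and Ppara shows the opposite order.

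For PA against control, 19 of the 34 genes were higher and 15 lower, with a median difference of 0.01, beside -0.01 over all 18209 genes compared. With each array scaled to its 75th percentile instead, 15 were higher and 19 lower, with a median of -0.01, so the direction of the group as a whole rests on the scaling. Past 1.5-fold, 3 were higher (Angptl4, Acot2 and Ehhadh) where the share over all genes was 2.92%, and 1 was lower (Ppargc1a) where that share was 3.27%. For ADSC medium against control, 23 were higher and 11 lower with a median of 0.04. Here 1 gene was at least 1.5-fold higher (Fabp4) against 2.31% of all genes, and 0 were at least 1.5-fold lower against 1.29%.

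For PA and ADSC medium against PA, 16 genes were higher and 18 lower with a median of -0.05. Past 1.5-fold, 3 were higher (Fabp4, Ppargc1a and Slc27a1) against 5.25% of all genes, and 2 were lower (Ehhadh and Pparg) against 3.72%. For PA and ADSC medium against ADSC medium, 12 were higher and 22 lower with a median of -0.11. In that comparison 2 were at least 1.5-fold higher (Angptl4 and Acot2) against 3.54% of all genes, and 1 was at least 1.5-fold lower (Echs1) against 3.14%. Each count rests on 0 to 3 genes, and no test set it against the share over all genes.

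The difference for PA could be read on separate pairs of arrays, without and with ADSC medium, which share no array. Over the 34 genes the pairs correlated with r = 0.71 (Spearman's rho 0.50), 23 of 34 had the same sign, and r was 0.56 without Angptl4, while over 17972 genes r was 0.52. The difference for ADSC medium without and with PA correlated with r = 0.72 (rho 0.64), again with 23 of 34 of the same sign and with r = 0.66 without Fabp4, against 0.49 over 18048 genes. The same sign was found in 11428 of the 17972 genes for PA and in 11372 of the 18048 for ADSC medium. The wider sets include genes well above background on only 1 array of a pair, while the 34 genes were so on all 4 arrays. The sets are therefore not matched. The correlations are descriptions across genes, which are not independent replicates, and the arrays share a slide and a scan.

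**Figure D4:**
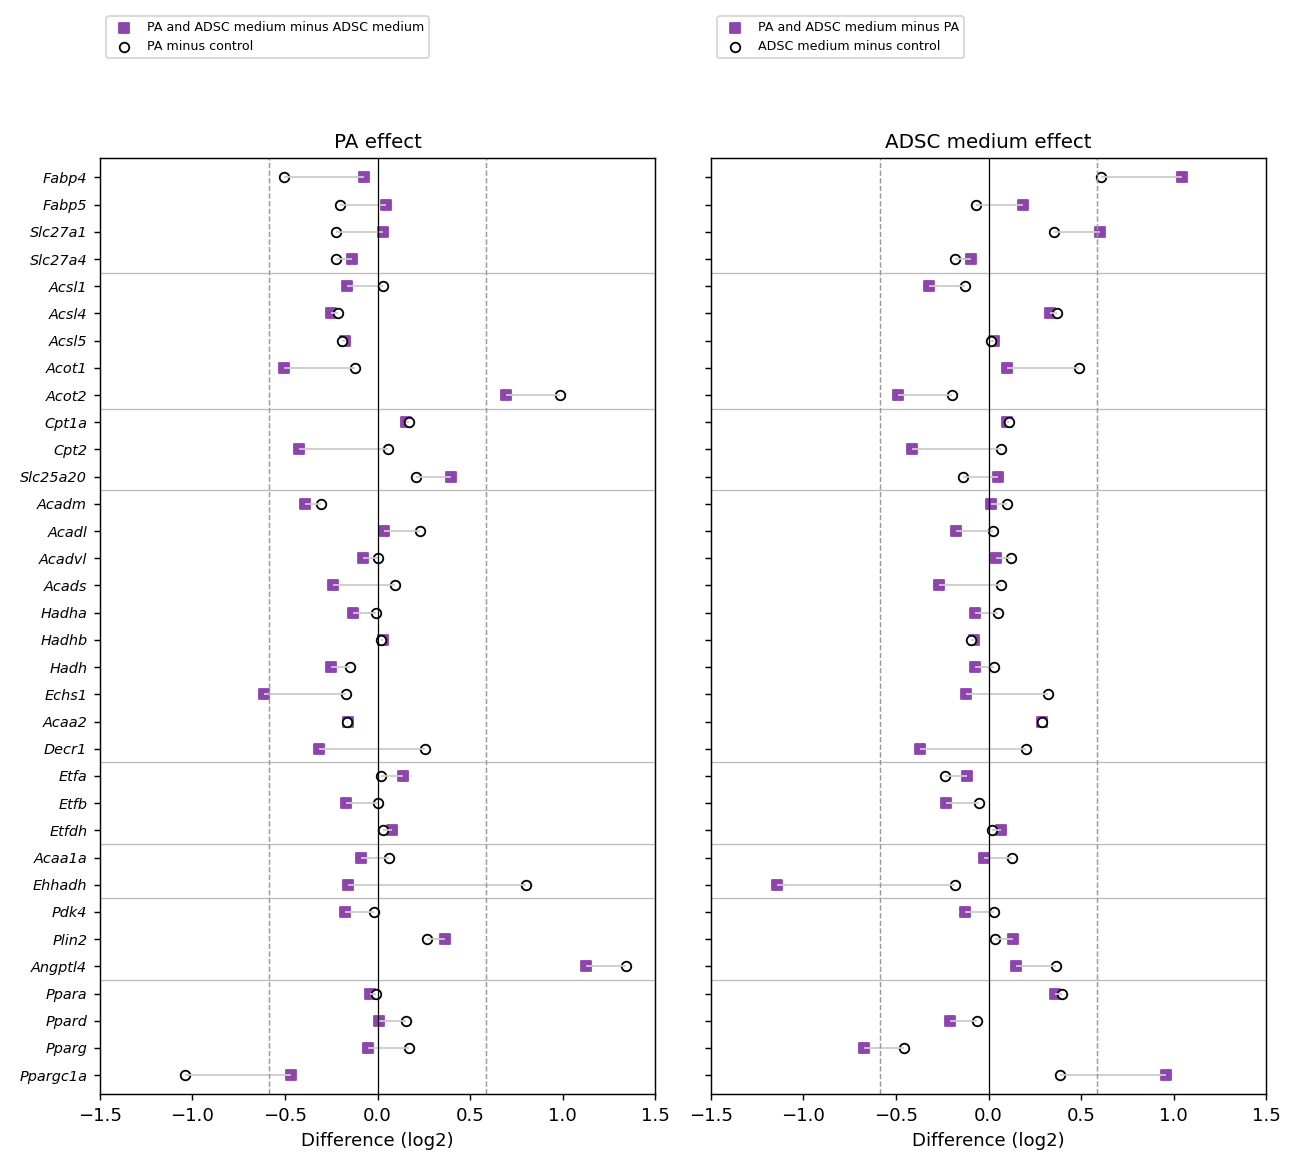
Log2 difference for PA (left panel) and for ADSC medium (right panel) for the 34 genes above background, with filled squares where the other treatment was present and open circles where it was absent, and dashed lines at 1.5-fold. Angptl4 and Acot2 lie right of the dashed line in both cases for PA (1.12 and 0.69 with ADSC medium, 1.34 and 0.98 without), Fabp4 does so for ADSC medium, and most other genes lie between the lines.

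A wider list held 109 genes of the same pathways outside the 35, all on the array. For PA against control 97 were compared, with a median of 0.0016. Past 1.5-fold, 2 were higher and 3 lower, against 2.92% and 3.27% of all genes. Txnip, an inhibitor of glucose uptake and thioredoxin, was at 9.24 with PA and 8.25 in the control (0.99), and Cidec, a lipid droplet protein, at 4.57 with PA and 3.82 in the control (0.75). Vnn1, a pantetheinase and PPAR alpha target in liver, was at 7.98 with PA and 8.93 in the control (-0.95). Plin4, a droplet coat protein, and Bdh1, a ketone body enzyme, differed by -0.62 and -0.62. Plin4 and Cidec passed 1.5-fold again, in the same direction, in PA and ADSC medium against ADSC medium, at -0.66 and 0.71.

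For ADSC medium against control 97 of the wider list were compared. Past 1.5-fold, 1 was higher and 1 lower, against 2.31% and 1.29% of all genes. Acsbg1, an acyl-CoA synthetase, was at 10.65 with ADSC medium and 9.94 in the control (0.71), and Cidea, a droplet protein, at 3.66 with ADSC medium and 4.48 in the control (-0.82). Both genes passed 1.5-fold in the same direction for PA and ADSC medium against PA, Acsbg1 by 0.92 and Cidea by -0.80. In that comparison 98 were compared, with a median of -0.07, and 2 were higher and 5 lower at 1.5-fold, against 5.25% and 3.72% of all genes. Mlycd, which breaks down malonyl-CoA, the natural brake on Cpt1a, was at 9.88 with PA and ADSC medium and 10.58 with PA (-0.70). Lipe, hormone-sensitive lipase, was at 5.70 with PA and ADSC medium and 5.02 with PA (0.69), and the remaining lower genes were Acot6, Acot11 and Fabp7, by -0.89, -0.61 and -0.66. For PA and ADSC medium against ADSC medium 97 were compared, with a median of -0.11. Past 1.5-fold, 2 were higher and 4 lower, against 3.54% and 3.14% of all genes. The transporter Slc27a5 (0.80) and the peroxisomal lyase Hacl1 (-0.62) were among these. No test set the counts of the wider list against the shares over all genes.

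The authors' deposited table of probes higher with PA and lower in the control names 1580 probes, 3.84% of the array, and holds 3 of the 52 probes of these genes (5.77%), those of Acot2, Ehhadh and Angptl4. The authors' deposited table of probes higher with PA and lower with PA and ADSC medium names 920 probes (2.23%) and holds 2 of the 52 (3.85%), those of Ehhadh and Pparg. Neither table gives values, and the sources used here do not give their thresholds.

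PPARs bind, together with RXR, a direct repeat of AGGTCA with 1 base between, and promoters were searched for it because many of the genes are called PPAR targets. The search used AGGTCANAGGTCA on both strands from 250 bases before to 50 after each start in RefSeq promoters (build GRCm38.p6), allowing at most 2 mismatches in the 12 fixed letters. Of the 35 genes 30 had an entry, with 35 promoters, and Fabp4, Fabp5, Acaa2, Decr1 and Angptl4 had none. A match was found in 5 of 35 promoters (14.3%), in 10 of 106 promoters of the wider list (9.43%) and in 1268 of 32851 promoters in all (3.86%). With at most 1 mismatch it was found in 0 of 35, against 0.554% of all promoters. The promoters of the 35 genes were also richer in GC, with a median of 60.7% against 52.7% over all promoters.

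The matches are shown with up to 20 bases on each side, 5′ to 3′ on the strand of the gene, and capitals mark the 13 matched bases. Those of Cd36, Etfa and Plin2 match on the opposite strand.
Plin2, chr4:86670252-86670304, minus strand: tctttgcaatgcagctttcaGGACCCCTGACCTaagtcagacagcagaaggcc
Echs1, chr7:140116472-140116524, minus strand: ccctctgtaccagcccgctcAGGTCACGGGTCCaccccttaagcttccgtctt
Etfa, chr9:55512288-55512340, minus strand: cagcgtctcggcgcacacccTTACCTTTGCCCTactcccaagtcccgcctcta
Cd36, chr5:17835927-17835979, minus strand: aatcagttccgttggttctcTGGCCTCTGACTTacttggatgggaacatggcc
Slc25a20, chr9:108662134-108662162, plus strand: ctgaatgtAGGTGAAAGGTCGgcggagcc
The match begins 225 bases before the start in Plin2, 83 in Echs1, 77 in Etfa and 63 in Cd36, and at transcribed base 7 in Slc25a20. Of these genes, Plin2 and Slc25a20 were higher on both arrays with PA (0.36 and 0.40 with ADSC medium, 0.27 and 0.21 without), Echs1 was lower on both (-0.61 and -0.17), Etfa differed by 0.14 and 0.02, and Cd36 was below background. A match in these letters is a description of the sequence.

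Each array held 43379 spots that were not controls, with 0 saturated, and 67.6% to 70.0% of probes were well above background. The 75th percentile of intensity before normalization was 542 with PA and ADSC medium, 622 with PA, 497 with ADSC medium and 495 in the control, so the arrays with PA were brighter. The part of this brightness in the differences for PA was not tested beyond scaling to that percentile, under which Angptl4 and Acot2 kept their differences past 1.5-fold. Of 15 stellate or myofibroblast markers 10 were well above background on all 4 arrays, and Gfap, Hand2, Lrat, Lum and Reln were below background on all 4. Of 9 hepatocyte markers on the array 3, namely Cyp3a11, Hnf4a and Tat, were well above background on all 4 arrays. Apob was so only with PA and ADSC medium, and Alb, Apoa1, Cps1, Fgb and Ttr were below background on all 4 arrays.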

How the data were processed

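Total RNA of IMS/N cells was measured on 4 one-colour Agilent arrays, 1 per condition, on 1 slide read in 1 scan. The deposited values are processed intensities, from which the authors' scanner software (Feature Extraction 12.1.1.1, array design 014868) had subtracted background, per the file headers. Quantile normalization is stated per the labels' design text, and R 3.5.1 per the submitters' processing notes. The authors' deposited tables of probe names hold no values.

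Control spots and 82 to 104 outlier spots per array were left out. Intensities were taken to log2, spots of a probe were averaged, and arrays were quantile-normalized with limma 3.58.1 in R 4.3.3. The log2 levels were thus computed here from the deposited intensities. Further steps used matplotlib 3.10.9, scipy 1.17.1, pandas 2.3.3 and numpy 2.4.6 under Python 3.11.15. The array has 41174 probes, of which 28 lacked a value on some array and 41146 were used. The deposited flags marked a probe well above background when set on more than 50% of its spots. Symbols came from RefSeq for 28696 probes. The probe of highest average level stood for its gene, and a gene was compared when well above background on at least 1 of the arrays. No paper or replicate was used, and no test was run.

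Genes at least 1.5-fold different, and all genes of their steps, are given by array. Of the wider list, the 3 largest differences per group of genes were eligible to be named. Cd14 and the other macrophage and adipocyte markers discussed singly were named after their values were seen. The genes and lists were chosen with earlier results of these data known. Scaling to the 75th percentile, normexp with offset 50, the mean of a gene's probes and no filter on dim probes were tried as alternatives. The calculation was tested on simulated data.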

Additional observations from a re-analysis of the deposited data

Results flagged for a closer look

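Echs1, the enoyl-CoA hydratase, drew attention because ADSC medium went with a lower level in the presence of PA (11.04 with PA and ADSC medium, 11.16 with PA, a difference of -0.12) and a higher level in its absence (11.65 with ADSC medium, 11.33 in the control, 0.32). The difference between these differences was -0.44. The spot SD of 0.059 is for a single difference, and the spread of a difference of differences is wider. The -0.12 stood close to 2 spot SDs (0.119), and with 75th percentile scaling it was -0.11.

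Decr1, the dienoyl-CoA reductase, did so for PA, which went with a lower level in the presence of ADSC medium (6.07 with PA and ADSC medium, 6.38 with ADSC medium, -0.31) and a higher level in its absence (6.44 with PA, 6.18 in the control, 0.26). The difference between these differences was -0.57, or -0.32 with normexp background correction. A second, dimmer probe gave -0.14 and 0.49. Neither difference was tested, since each condition has 1 array, and each exceeds only the spread between spots.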

How the results depend on the processing

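No paired analysis was possible because the labels give no replicate numbers to pair and each condition has 1 array. A fit with the 2 treatments as additive terms would leave 1 residual degree of freedom and was not run. The 4 medians and 8 counts of genes past 1.5-fold were recomputed under 4 alternatives, and 3 counts differed, each with normexp background correction. The genes at least 1.5-fold higher for PA against control were then 2, against 3, as Ehhadh gave 0.27. The genes at least 1.5-fold lower for PA and ADSC medium against PA were 1, against 2, as Ehhadh gave -0.33, and those at least 1.5-fold higher for PA and ADSC medium against ADSC medium were 1, against 2, as Acot2 gave 0.56; the cause was not tested. The median for PA against control was 0.01, and -0.01 with 75th percentile scaling, the one alternative that turned its sign. Of 13 differences past 1.5-fold, 13, 10 and 13 stayed past it with 75th percentile scaling, normexp and the mean of probes. Of 170 single-gene values, 8, 7 and 9 had the other sign under these settings. Both values exceeded the spot SD in 2 of them, each for PA and ADSC medium against ADSC medium with the mean of probes, Hadha at 0.10 against -0.13 and Etfdh at -0.06 against 0.08.

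Over all genes the counts higher and lower depended on the treatment of dim probes. For PA against control they were 532 and 596, but 221 and 164 with normexp and 1585 and 1510 with no filter. For ADSC medium against control they were 420 and 234, but 106 and 22 with normexp and 1557 and 1210 with no filter. For PA and ADSC medium against PA they were 985 and 698, but 343 and 103 with normexp, 1877 and 1631 with no filter and 1228 and 508 with 75th percentile scaling. For PA and ADSC medium against ADSC medium they were 653 and 579, but 248 and 143 with normexp and 1629 and 1586 with no filter. Ehhadh, Ppard, Ppara and Acot1, whose signal lies close to background, are the least precise of the genes described.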
